A study of Caenorhabditis elegans with 24 samples.

Results

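The Caenorhabditis elegans hairpins mir-62, mir-1019 and mir-1020 (listed as cel-mir-62, cel-mir-1019 and cel-mir-1020) are microRNA (miRNA) precursors of the intronic kind called mirtrons. They were chosen by name, by a rule that used no measured value, though earlier results of these data were known. Every row of the count table that lists one of these precursors was taken. This gave 3 of 253 precursors and 5 of 450 mature rows (miR-62, miR-1019-5p, miR-1019-3p, miR-1020-5p and miR-1020-3p). Small RNA was sequenced from whole animals of 6 alg-1 genotypes, harvested after 45 h of feeding at 20 °C following a hatch without food. WT was the N2 strain. The 4 alleles modelled on human AGO1 changes of neurodevelopmental disorders (NDD) were alg-1(ma447, F180del), alg-1(ma443, G199S), alg-1(zen25, V254I) and alg-1(zen18, H751L), and the null was alg-1(tm492). Each genotype gave 2 libraries of total small RNA and 2 of small RNA recovered with ALG-1 by immunoprecipitation (IP), which made 24 libraries in 12 groups. No label states that 2 numbered libraries are 2 cultures, and p-values therefore rest on a spread between libraries that may be technical.

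Most miRNAs are cut out of a primary transcript by the nuclear enzyme Drosha and then by Dicer. A mirtron skips the Drosha step: a short intron is spliced out, its lariat is opened by the debranching enzyme, and the freed intron folds into a hairpin whose ends are the splice sites and which Dicer can cut. One arm of the resulting duplex is then held by an Argonaute protein, in C. elegans mainly ALG-1 or its close relative ALG-2, and an alg-1 null still has ALG-2.

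In the WBcel235 annotation each of the 3 hairpins filled its intron exactly, on the strand of the host gene, with a distance of 0 bases between hairpin end and intron end on both sides. The mir-62 hairpin occupied chrX:12692608-12692665 on the plus strand, which is intron 3 of 9 of ugt-50 (transcript T07C5.1b.1), a gene of the UDP-glucuronosyltransferase family. Its annotated mature miRNA, at chrX:12692644-12692665, was the 3′ arm and ended on the last base of the intron. The mir-1019 hairpin occupied chrI:9361597-9361665 on the plus strand, intron 5 of 8 of dyf-5 (M04C9.5a.1), which encodes a kinase of sensory cilia. Here miR-1019-5p began on the first base of the intron and miR-1019-3p ended on the last. The mir-1020 hairpin occupied chrIII:10047746-10047815 on the minus strand, intron 6 of 29 of T16G12.1, and its arms touched the intron ends in the same way. The introns were 58, 69 and 70 bases long. In position all 3 are thus mirtrons as described above. The hairpin mir-1018, examined beside them as a known mirtron, lay outside the introns of protein-coding genes in this annotation.

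Library totals ran from 3940626 to 13835895 miRNA reads, so that 3 reads, the limit that a count of 0 allows, equal 0.217 to 0.761 reads per 1000000 miRNA reads (RPM). Replicate libraries correlated with r between 0.965 and 0.996 on the log2(RPM + 1) scale across miRNAs, and no pair held identical values. All levels are relative within a library, and in lysates of whole animals fewer cells that make a miRNA cannot be told apart from less of it per cell. The null IP contains no ALG-1 and serves as the background of the precipitation.

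The 3 hairpins differed widely in abundance. The miRNA miR-62 gave 56348 reads over the 24 libraries and was seen in every one. Next came miR-1020-3p with 9992 reads, in all 12 total and 11 of 12 IP libraries. Its partner arm miR-1020-5p gave 169 reads, miR-1019-5p gave 77, and miR-1019-3p gave 2, both in 1 V254I total library. In WT total RNA miR-62 ranked 62 and miR-1020-3p ranked 88 among 336 miRNAs with reads, and in the WT IP they ranked 92 and 120 of 321. Of the 5 mature rows, 3 passed the filter on low counts in total RNA (miR-62 and both arms of mir-1020) and 2 in the IP (miR-62 and miR-1020-3p). The mir-1019 rows were not tested.

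In total RNA miR-62 was lowest in the animals without ALG-1. WT libraries stood at 466 and 470 RPM (468 ± 2.90, mean ± SD, n = 2). The F180del libraries stood at 1025 and 217 RPM, G199S at 461 and 312, V254I at 337 and 448, and H751L at 297 and 505. The F180del libraries thus enclosed all those of the other NDD alleles and of WT, and differed 4.72-fold from each other. Null libraries stood at 170 and 136 RPM (153 ± 24.1), below every library of the other genotypes, and the ratio of the null mean to the WT mean was 0.327. In the order of means, F180del, WT, H751L, V254I, G199S and null, the last was the sole group that overlapped with none of the others. Of the 303 miRNAs tested, 18.5% had both null libraries below both WT libraries. The share with the null below all other genotypes is not given.

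Among the IP libraries the order changed and F180del led. WT IP libraries held miR-62 at 43.6 and 74.6 RPM (59.1 ± 21.9). The F180del IP libraries held 262 and 325 RPM (294 ± 44.1), above every other IP library and 4.96 times the WT mean. Of the 269 miRNAs tested, 58.4% had both F180del IP libraries above both WT IP libraries. Scaled by library totals, their median log2 change was 0.96. For miR-62 V254I followed at 230 and 74.2 RPM, G199S at 52.5 and 98.8, and H751L at 113 and 10.2. These 3 genotypes overlapped with WT and with one another, and the H751L libraries differed 11.0-fold. Null IP libraries held 3.94 and 11.4 RPM (7.65 ± 5.24), below both WT libraries but overlapping with the lower H751L library.

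The second abundant mirtron, miR-1020-3p, is the 3′ arm of mir-1020. In total RNA it stood at 109 and 95.7 RPM in WT (102 ± 9.28), 93.5 and 86.5 in F180del, 54.3 and 71.4 in G199S, 43.5 and 84.2 in V254I and 66.3 and 116 in H751L. Null libraries were again the lowest, at 12.5 and 30.4 RPM (21.4 ± 12.6), with a ratio of means to WT of 0.21 and no overlap with any other genotype. In the order of means, WT, H751L, F180del, V254I and G199S, neighbours overlapped except F180del and V254I, and the H751L libraries enclosed both WT and both F180del libraries. As stated for miR-62, 18.5% of the 303 miRNAs tested had both null libraries below both WT libraries.

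In the IP miR-1020-3p ran from F180del (29.9 and 35.8 RPM) through G199S (19.9 and 36.6), V254I (21.3 and 16.8), WT (15.2 and 16.5) and H751L (11.9 and 7.41) to the null. The null IP libraries held 0 and 4 reads, the latter equal to 0.857 RPM. F180del and G199S overlapped, as did G199S and V254I, while H751L lay below WT and above the null. The share of all miRNAs with H751L below WT in the IP is not given.

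**Figure D1:**
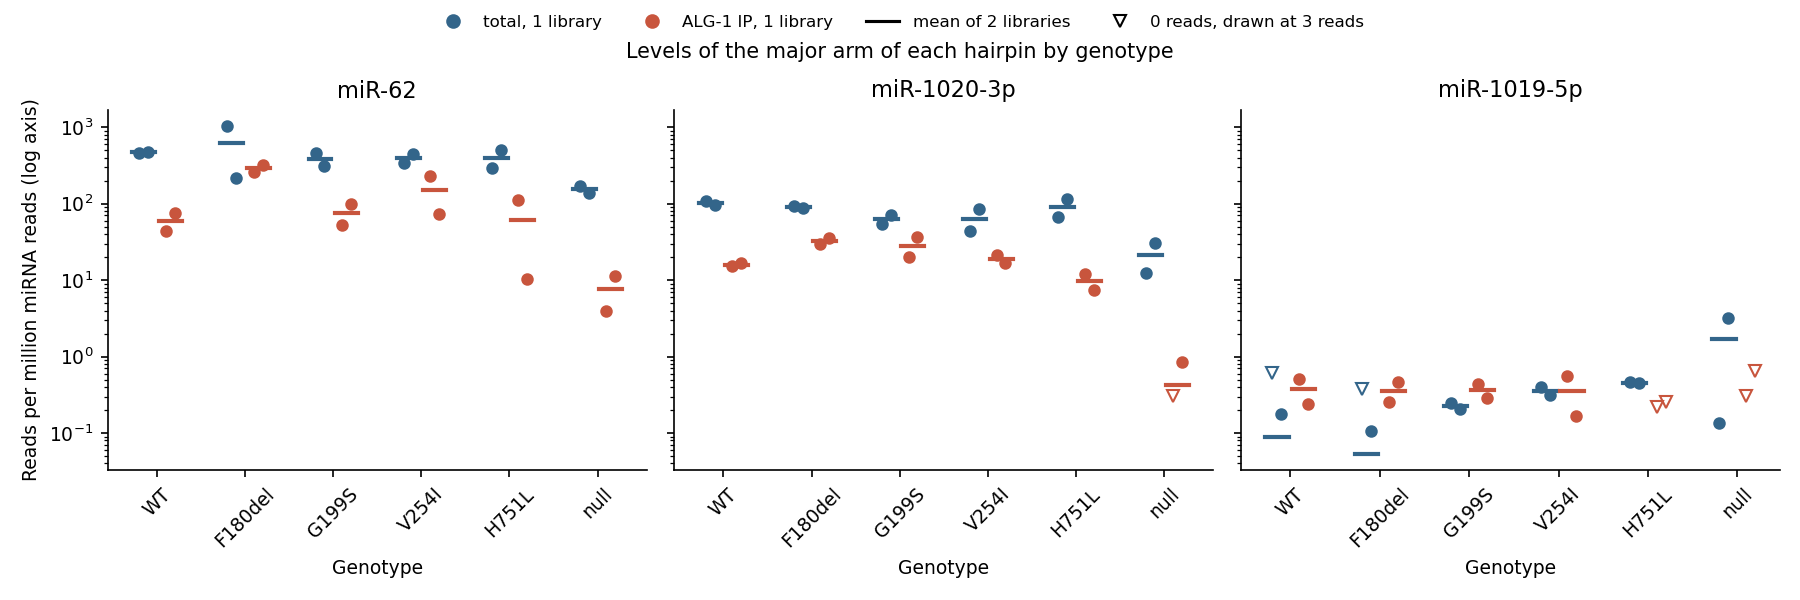
Levels in RPM (log axis) of miR-62, miR-1020-3p and miR-1019-5p by genotype, in total RNA (blue) and ALG-1 IP (red). Points are single libraries, bars the mean of 2 libraries and open triangles libraries with 0 reads drawn at the level of 3 reads. In the null, the mean of miR-62 is 153 RPM in total RNA and 7.65 RPM in IP, and that of miR-1020-3p is 21.4 RPM in total RNA.

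The minor arm of mir-1020 was scarce throughout. Summed over libraries, miR-1020-5p made up 1.57% of mir-1020 reads in total RNA (exact 95% interval 1.31 to 1.87) and 2.03% in the IP (1.47 to 2.73), and these intervals overlapped. Both null total libraries had 0 reads of it against 93 and 197 mir-1020 reads, which gives upper limits of 3.89% and 1.86%, and WT had 2.55% and 1.19%. The pooled level of miR-1020-5p in WT was 7.73-fold the limit of 3 reads over the null group. In the NDD alleles it was 2.71-fold (V254I) to 8.69-fold (H751L) that limit. These ratios leave out the counting error of the WT and NDD counts. The V254I ratio rests on 1 library, since its counts were 1 and 12 reads and library 1, at 0.079 RPM, lay under the 0.216 RPM that the null allows, and G199S had 2 and 21 reads. With limma on the ratio of the 2 arms in total RNA, mir-1020 passed in none of 5 comparisons with WT by adjusted p and in none by unadjusted p under 0.05. In the null, where the minor arm had 0 reads, the fitted ratio is set by the 0.5 added to counts and gives no size (adjusted p = 0.182). Over all 99 hairpins with countable minor arms, the share called was 12.1% in F180del, 13.1% in G199S, 0.00% in V254I, 5.05% in H751L and 13.1% in null.

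The dyf-5 mirtron, mir-1019, was near the limit of detection. In total RNA its 5′ arm had 2 reads in WT, 1 in F180del, 4 in G199S, 8 in V254I and 10 in H751L, counted over both libraries of a genotype. The null total group had 22 reads (1.58 RPM, exact 95% interval 0.991 to 2.39), but 21 of them came from 1 library and the other held 1. In the IP miR-1019-5p had 9 reads in WT (0.371 RPM, 0.170 to 0.704), 5 in F180del, 7 in G199S and 9 in V254I. No read was found in the IP of H751L, which allows up to 0.117 RPM, or of the null, which allows up to 0.206 RPM. Of all mir-1019 reads the 5′ arm took 95.9% in total RNA and 100% in the IP, the opposite arm from that of mir-1020 (for mir-62 the table lists 1 mature row, so no arm share can be had). By counting error, the exact upper bound in the H751L IP (0.144 RPM) lay under the lower bounds of WT, G199S (0.153 RPM) and V254I (0.165 RPM). It lay above that of F180del (0.128 RPM), which the limit of 0.117 RPM did not reach. The null interval in total RNA lay above those of the other genotypes, through the 1 library. Whether these differences exceed the spread between libraries was not tested.

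Against WT, miR-1020-3p was lower in the alg-1 null, and no tested member row passed in any NDD allele. In total RNA of the null miR-1020-3p fell by 2.39 ± 0.67 on the log2 scale (edgeR quasi-likelihood test, Benjamini-Hochberg adjusted p = 0.0422, lower in 2 of 2 libraries). The change of miR-62 was -1.74 ± 0.72 and did not pass (edgeR adjusted p = 0.136), and miR-1020-5p, with no read in the null, had an adjusted p of 0.0696. As miR-1020-5p passed the filter through the other genotypes, no test of it against the null, by edgeR or DESeq2, gives support. So 1 of 3 tested rows was lower beside 4.29% of the 303 miRNAs tested, and both libraries of a null miRNA lay below both WT libraries in 18.5% of them. The call of miR-1020-3p was lost without null library 1 (-1.90, adjusted p = 0.159), without WT library 1 (adjusted p = 0.0788) or 2 (adjusted p = 0.0886) and with only these groups in the fit (adjusted p = 0.0971), whereas DESeq2 called all 3 rows, miR-62 with an adjusted p of 0.0355.

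In the IP the null was also set against WT. The fitted change of miR-1020-3p was -5.23 ± 1.12 (edgeR adjusted p = 0.00443), and that of miR-62 was -2.66 ± 1.01 (adjusted p = 0.0538). Thus 1 of 2 tested rows was lower, beside 24.2% of the 269 miRNAs tested, and the median change of all of them was -0.77. For miR-1020-3p the size rests on 4 reads: it was -3.28 without null library 1, which held none, and -10.51 without null library 2, and the call was lost with only these groups in the fit (adjusted p = 0.167). For miR-62 the change passed with DESeq2 (adjusted p = 0.0153), with relative log expression factors (0.0491), with library totals (0.0305), without the filter (0.00944) and without null library 2 (0.00943). It did not pass in the remaining 6 of 11 alternatives, and without null library 1 it was -1.49 (adjusted p = 0.326). The test of whether the null differed from WT more in the IP than in total RNA passed for neither row (adjusted p = 0.81 for miR-62 and 0.232 for miR-1020-3p).

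None of the 4 NDD alleles moved a member past the threshold against WT, in either fraction. In total RNA 0 of 3 rows passed in each allele with edgeR, 0 had an unadjusted p under 0.05 and DESeq2 called 0. All miRNAs tested were called in 15.5% (F180del), 11.9% (G199S), 0.00% (V254I) and 1.98% (H751L). In the IP 0 of 2 rows passed in each allele by the same 3 counts, where 32.3%, 25.3%, 0.00% and 2.23% of all miRNAs were called in that order. The largest member change was that of miR-62 in the F180del IP, 1.62 ± 0.96 (adjusted p = 0.218), although neither F180del library overlapped with WT. In that comparison 58.4% of miRNAs had both F180del libraries above both WT libraries. With only the F180del and WT IP libraries in the fit it passed (1.49, adjusted p = 0.0118).

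Set against the null, which shares its libraries over all 4 comparisons, the NDD alleles held more of both mirtrons in the IP. The changes of miR-1020-3p were 5.60 ± 1.13 in F180del (edgeR adjusted p = 0.0023), 5.75 ± 1.13 in G199S (0.00276), 5.29 ± 1.12 in V254I (0.00383) and 4.73 ± 1.11 in H751L (0.0083). Those of miR-62 were 4.27 ± 1.08 in F180del (adjusted p = 0.00815), 3.75 ± 1.06 in V254I (0.016) and 2.84 ± 1.02 in H751L (0.0456), while G199S, at 2.69 ± 1.01, did not pass (0.0503). Both rows therefore rose in F180del, V254I and H751L and 1 of 2 in G199S, beside 37.2%, 28.3%, 23.8% and 34.2% of all miRNAs that were higher in those alleles. The median change of all miRNAs was 1.22, 0.99, 0.63 and 1.40 in the same order.

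Several of these calls depend on single libraries. For miR-62 in H751L the call was lost with all precursor rows (adjusted p = 0.0506), with only these groups (0.192) and with a replicate block. The change was 0.48 without H751L library 1 and 1.82 without null library 1. In V254I it was 2.57 (adjusted p = 0.163) without V254I library 1 and 2.63 (adjusted p = 0.102) without null library 1, and the call was lost with only these groups (0.0782). The F180del call for miR-62 held in all 11 alternatives, with changes from 3.34 to 5.52. For miR-1020-3p all 4 calls held when null library 1 was left out, at 2.89 to 3.91, and when null library 2 was, at 10.03 to 11.05. They were lost when each fit held its 2 groups alone.

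In total RNA none of the NDD alleles passed against the null. With edgeR 0 of 12 tests over the 3 rows and 4 alleles passed, although 10 had an unadjusted p under 0.05 and DESeq2 called 7. The last 2 counts include miR-1020-5p, which had 0 reads in the null. It passed the filter through the other genotypes, so its tests give no support. Of all miRNAs 3.30% were called in F180del, 8.58% in G199S, 11.6% in V254I and 3.30% in H751L. The changes of miR-62 lay between 1.24 (G199S) and 1.76 (F180del), and those of miR-1020-3p between 1.50 (G199S) and 2.35 (H751L, adjusted p = 0.0607).

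**Figure D2:**
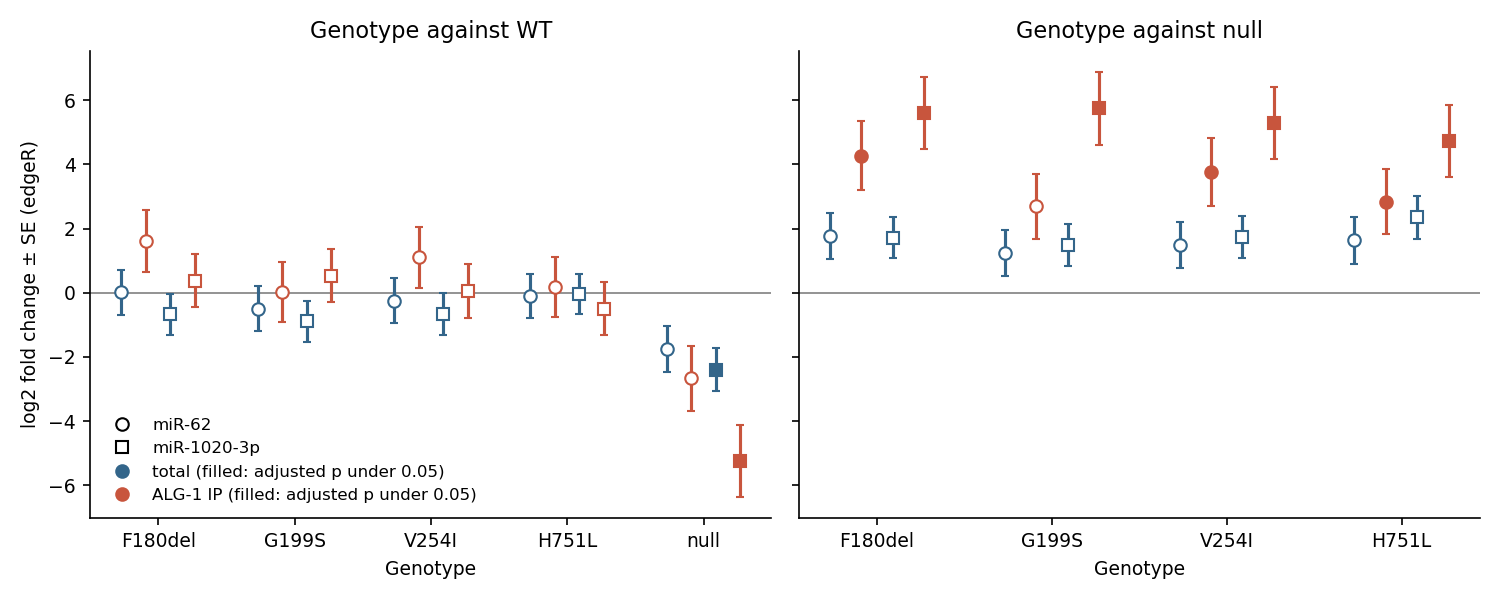
Fitted log2 fold changes with their standard errors (edgeR) of miR-62 (circles) and miR-1020-3p (squares) for each genotype against WT (left) and for each NDD allele against the null (right), in total RNA (blue) and ALG-1 IP (red). Filled symbols passed an adjusted p of 0.05: miR-1020-3p in the null in both fractions, and 7 of 8 IP values against the null.

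The mean level of both mirtrons was lower in the ALG-1 IP than in total RNA in every genotype, although the IP and total libraries of miR-62 overlapped in F180del. In WT the mean IP level of miR-62 was 12.6% of its mean total level and that of miR-1020-3p was 15.5%. The range over the 4 pairings of libraries was a ratio of 0.0927 to 0.160 for miR-62 and 0.140 to 0.173 for miR-1020-3p, so no IP library reached a total library. Over the 304 miRNAs tested with reads in WT total RNA, the median percentage was 51.3%, and 64 lay below miR-62. In the null, where no ALG-1 is present, the percentages were 4.99% and 2%. In the NDD alleles they were 47.2% and 36.5% in F180del, 19.5% and 44.9% in G199S, 38.8% and 29.9% in V254I, and 15.3% and 10.6% in H751L, in each case miR-62 first. Scaled by library totals, the median log2 IP to total change of all miRNAs tested also differed between genotypes. This median was -0.14 in F180del, -0.51 in G199S, -0.69 in V254I, -1.51 in H751L, -2.02 in the null and -0.88 in WT.

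Tested over all 24 libraries, IP against total, the difference was past the threshold in the null alone. There miR-62 was lower in the IP by a log2 change of -3.20 ± 0.93 (edgeR adjusted p = 0.0107) and miR-1020-3p of -4.91 ± 1.04 (adjusted p = 0.00114). Both rows with reads were thus lower, beside 22.5% of all miRNAs. In WT the changes were -2.37 ± 0.89 (adjusted p = 0.0574) and -2.10 ± 0.80 (adjusted p = 0.0619). Neither passed, beside 12.7% of all miRNAs that were lower in the WT IP, though both had an unadjusted p under 0.05. These WT values depended on the scaling: with library totals they were -2.99 (adjusted p = 0.0164) and -2.69 (adjusted p = 0.0129), and DESeq2 called both. In the null the miR-62 call was lost without null IP library 1 (-2.69, adjusted p = 0.0906; -4.98 without library 2) and with the null libraries alone in the fit (adjusted p = 0.107), as was that of miR-1020-3p in the latter (adjusted p = 0.212). The size of the miR-1020-3p change rests on 4 null IP reads: it was -3.56 without null IP library 1 and -10.44 without null IP library 2.

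In the NDD alleles the IP to total changes of miR-62 were -1.38 ± 0.86 in F180del, -2.09 ± 0.88 in G199S, -1.19 ± 0.86 in V254I and -1.63 ± 0.87 in H751L. Single libraries moved these values: F180del turned to 0.69 without its total library 1, V254I was -0.24 without its IP library 2, and H751L was -0.75 without its IP library 2 and -4.27 (edgeR adjusted p = 0.0177) without its IP library 1. Those of miR-1020-3p were -1.79 ± 0.79, -0.89 ± 0.78, -1.53 ± 0.79 and -2.09 ± 0.80. With edgeR 0 of 3 rows passed in each allele, beside 6.67%, 5.08%, 9.84% and 15.6% of miRNAs that were lower in these IPs. At an unadjusted p under 0.05 there was 1 row in F180del, 1 in G199S, 0 in V254I and 2 in H751L, and DESeq2 called 0, 1, 1 and 3. Both H751L counts include miR-1020-5p. That row passed the filter through its total RNA reads, so its tests give no support for a lower IP level.

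Whether the IP to total ratio itself differed from that of WT was tested by the interaction. With edgeR 0 of 15 tests over the 3 rows and 5 genotypes passed, 1 had an unadjusted p under 0.05 (miR-1020-3p in the null) and DESeq2 called 0. Of these rows miR-1020-5p passed the filter through its total RNA reads. The called share of all miRNAs was 2.22% in F180del, 0.952% in G199S, 0.00% in V254I, 0.00% in H751L and 1.27% in null. For miR-62 the differences from WT were 0.99 ± 1.2 in F180del, 0.28 ± 1.19 in G199S, 1.18 ± 1.2 in V254I, 0.74 ± 1.2 in H751L and -0.83 ± 1.21 in the null. For miR-1020-3p they were 0.31 ± 1.09, 1.21 ± 1.09, 0.57 ± 1.09, 0.00 ± 1.13 and -2.81 ± 1.28 (adjusted p = 0.232). The last became -8.47 (adjusted p = 0.00104) without null IP library 2, which held its only reads in the null IP.

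**Figure D3:**
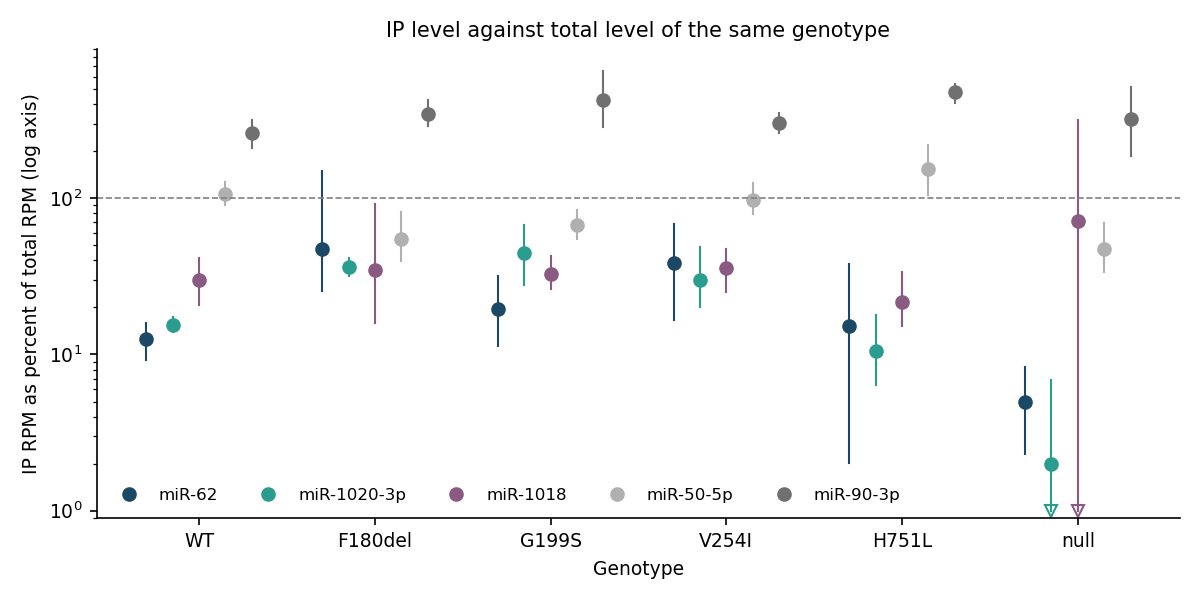
Mean IP level as a percentage of the mean total level (log axis) of miR-62, miR-1020-3p, miR-1018, miR-50-5p and miR-90-3p in each genotype. Points are ratios of the 2 means, lines the range over the 4 pairings of libraries, open triangles a lower end at 0, and the dashed line equal levels. In WT miR-62 sits at 12.6%, miR-1020-3p at 15.5%, miR-1018 at 30.2%, miR-50-5p at 107% and miR-90-3p at 262%.

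The miRNAs miR-50-5p and miR-90-3p are known to share the seed of miR-62 (the bases that pair with targets), and both derive from hairpins placed further inside their introns, those of tln-1 and K01F9.2. They were far more abundant: in WT total RNA miR-50-5p stood at 3256 ± 536 RPM and miR-90-3p ranked 16 where miR-62 ranked 62. In the WT IP against total, miR-90-3p was higher by 1.93 ± 0.39 (edgeR adjusted p = 0.00195) and miR-50-5p changed by 0.64 ± 0.46 (adjusted p = 0.32). In null total RNA their changes against WT were -0.77 ± 0.56 for miR-50-5p (adjusted p = 0.414) and -0.76 ± 0.53 for miR-90-3p (adjusted p = 0.385). In the null IP miR-50-5p fell by 1.53 ± 0.31 (adjusted p = 0.00364; -0.74 and adjusted p = 0.145 without null library 1), and miR-90-3p changed by -0.13 ± 0.26. Of all miRNAs tested, 24.2% of 269 were called lower in the null IP than in the WT IP. In the WT IP against total, 29 of 315 were called higher. The differences between the values of miR-50-5p or miR-90-3p and those of miR-62 were not tested.

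The miRNA miR-1018 was scarce, with 1294 reads in all. In total RNA it stood at 8.12 and 9.76 RPM in WT and at 0.539 and 1.85 RPM in the null, without overlap. It fell in the null by 3.05 ± 0.89 (edgeR adjusted p = 0.0422), a call lost without null library 1 (adjusted p = 0.145), without WT library 1 (0.0788) or 2 (0.0993) and with only these groups (0.2). Of the 303 miRNAs tested in total RNA, 4.29% were called lower in the null, and 18.5% had both null libraries below both WT libraries. In the IP miR-1018 changed by -1.45 ± 1.24 (edgeR adjusted p = 0.354), and the sign turned to 0.30 without null library 1. Its mean IP level in WT was 30.2% of its mean total level (IP against total -1.22, edgeR adjusted p = 0.409). In the null the percentage was 71.8%, with 0 reads in 1 IP library and 8 in the other.

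Hairpins that end at intron ends formed a list of 9 in the annotation, out of 66 in introns on the host strand and 250 matched hairpins. Besides the 3 described, mir-4816, mir-4920, mir-4924, mir-4926 and mir-4927 also filled their introns exactly, and mir-8187 began 8 bases into a longer one. The remaining 57 lay further inside. The most read of the others were miR-4816-3p with 10454 reads in total RNA and 2141 in the IP, miR-4816-5p with 7143 and 521, and miR-4926 with 5239 and 4. No read of miR-4924 was found.

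In WT most rows of this list with reads had a lower mean level in the IP than in total RNA. The percentage ran from 0 for miR-4926 and miR-4927 to 20.5% for miR-4816-3p in the 8 rows that passed the filter over all libraries. The unfiltered miR-1019-5p went the other way, with 9 IP reads against 2 in total RNA. The filter bears on this: miR-1020-5p, miR-4926 and miR-4927 were kept through their total RNA reads, and 5 of the 8 passed in the IP libraries alone. The percentages over the 8 are therefore no support for a low IP level, and no test is given for those kept through total RNA. By edgeR miR-4816-3p was lower in the WT IP by 1.78 ± 0.63 in size (adjusted p = 0.0464). The size was 3.55 ± 0.99 for miR-4816-5p (0.0137) and 3.42 ± 1.17 for miR-4920 (0.0419). Neither miR-62 nor miR-1020-3p passed (adjusted p = 0.0574 and 0.0619), and 12.7% of all miRNAs were lower. In WT miR-4926 stood at 42.0 and 49.9 RPM in total RNA and had 0 reads in the IP. Its pooled total level was 384-fold the limit of 3 reads over the WT IP. The call of miR-4816-3p was lost without the filter (adjusted p = 0.125), without WT total library 2 (-0.93, adjusted p = 0.364) and without WT IP library 1 (0.238) or 2 (0.226). That of miR-4920 was lost without each of the 4 WT libraries (adjusted p from 0.0682 to 0.257), and that of miR-4816-5p without WT IP library 1 (-2.94, adjusted p = 0.163) or 2 (adjusted p = 0.0521).

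In null total RNA 3 of 8 rows of the list were lower than WT and 0 higher, beside 4.29% lower over all 303 miRNAs. The 8 rows hold both arms of mir-1020 and both of mir-4816, so they are not 8 hairpins. The lower rows were miR-1020-3p, miR-4816-3p at -2.19 ± 0.65 and miR-4920 at -3.42 ± 1.03, each with an edgeR adjusted p of 0.0422. The list's median was -1.96, that of the 72 rows further inside introns 0.12 (1 lower and 5 higher) and that of all 303 miRNAs 0.23. Without the 3 mirtrons described first, the list's median was -1.20 and 2 of 5 rows were lower. Not every row followed: miR-4926 stood at 31.0 and 127 RPM in the null and overlapped with WT. The calls of miR-4816-3p and miR-4920 were both lost without null library 1, without either WT library and with only these groups, and that of miR-4816-3p also without null library 2 (adjusted p = 0.165). For miR-4920 the change was -7.18 at its lowest among the 11 alternatives.

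**Figure D4:**
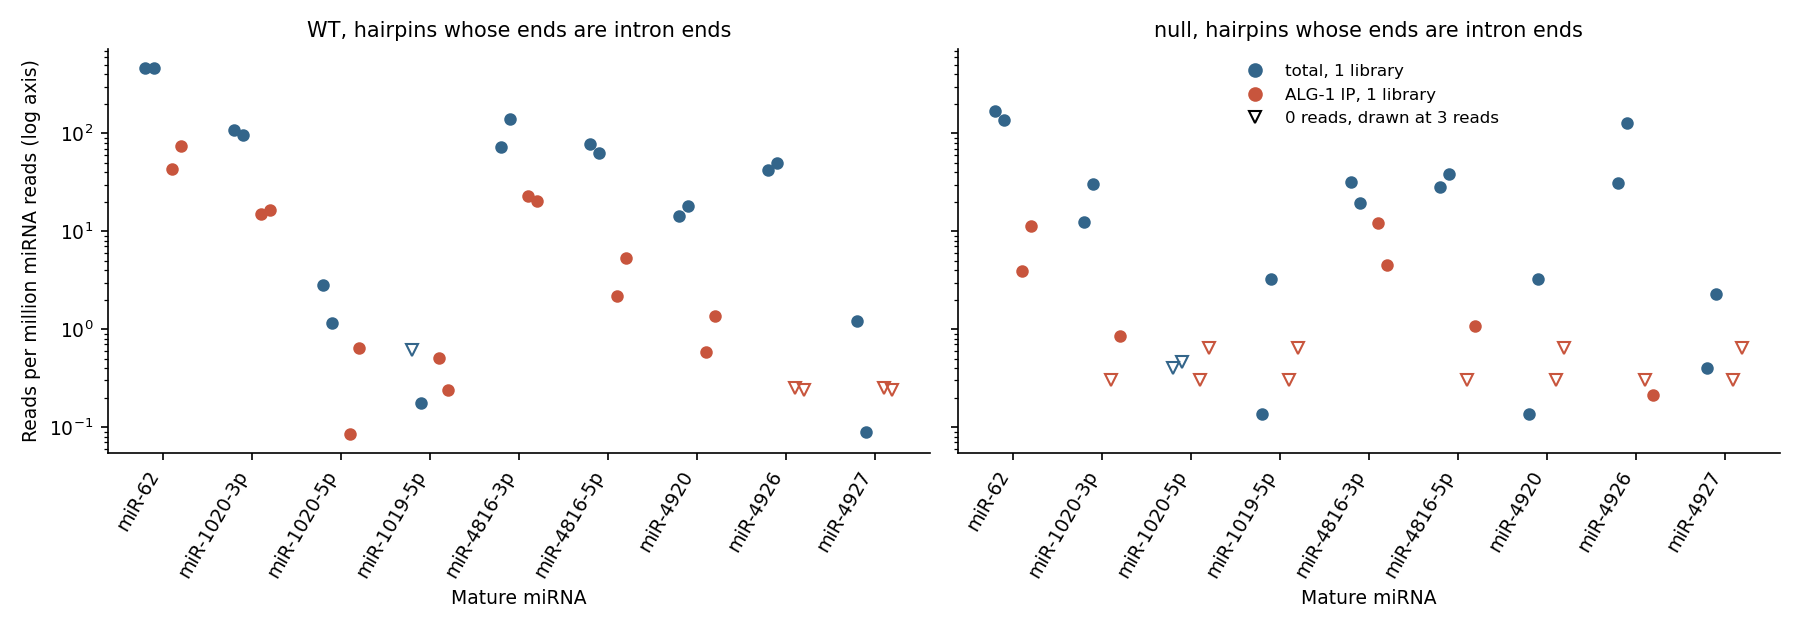
Levels in RPM (log axis) of 9 mature miRNAs from hairpins whose ends are intron ends, in WT (left) and the alg-1 null (right), for total RNA (blue) and ALG-1 IP (red). Points are single libraries and open triangles libraries with 0 reads drawn at the level of 3 reads. In WT the IP points lie below the total points except for miR-1019-5p and for miR-4927, whose IP triangles mark 0 reads, and miR-4926 has 0 reads in the WT IP.

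The miRNAs whose profile was most like the major arms were picked by Pearson's r of log2(RPM + 1) among filtered miRNAs, as a description over 12 libraries that share depth and genotype. In total RNA miR-62 was most like miR-358-5p (r = 0.768), miR-799 (0.752) and miR-255-3p (0.737). For miR-1020-3p the nearest were miR-5545-5p (0.927), miR-784-5p (0.893) and miR-4920 (0.864), the last itself from a hairpin that fills an intron. In the IP miR-62 lay nearest to miR-799 (0.919), miR-46-5p (0.911) and miR-784-5p (0.889), and miR-1020-3p to miR-64-5p (0.954), miR-65-5p (0.949) and miR-788-3p (0.946). The 2 mirtrons followed each other with r = 0.692 in total RNA and 0.877 in the IP. With a pseudocount of 0.1 RPM miR-1020-5p took the place of miR-4920 in total RNA, and only 1 of the 3 IP names was kept for each. The sparse miR-1019-5p was nearest to miR-5552-5p in total RNA (0.860), where 1 null library held 21 of the 47 reads, and to miR-789-3p in the IP (0.883).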

How the data were processed

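The authors deposited whole read counts per mature miRNA and precursor, and the same values as RPM (reads per 1000000 miRNA reads); the RPM equal the counts over the library total. The tools, per the submitters' processing notes, include Bowtie 1.2.2, cutadapt, FastQC 0.11.8 and DESeq2, with no role stated. For genome build, miRNA annotation and multi-mapping reads, the sources used here give nothing. A further 48 per-sample columns matched no label and were not used. Names listed for several precursors were counted once, which removed 13 rows.

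Tests on counts used edgeR 4.0.16 under R 4.3.3 (TMM, filterByExpr, quasi-likelihood on group means) in one fit of the total libraries (303 miRNAs), one of the IP libraries (269) and one of all 24 (315), with Benjamini-Hochberg adjustment over all miRNAs and a threshold of 0.05. SE is the size of the change over the square root of F. Arm ratios used limma 3.58.1 (trend, log2 of counts plus 0.5, mean minor arm count of at least 10). The fits were tested on simulated data. Intervals and the limit of 3 reads cover counting error only. Positions come from the WBcel235 annotation, in which 250 of 253 hairpins were found; an intron end counts as reached within 10 bases.

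Alternatives were relative log expression factors, library totals, no filter, DESeq2 1.42.0, only the compared groups, all precursor rows, a replicate block and leaving out each library. Members, lists and the rule for named miRNAs (all member rows, seed mates, mir-1018, the 3 nearest profiles, hairpins at intron ends) were chosen with earlier results of these data known; of the last list the rows named were those with most reads or past the threshold.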

Additional observations from a re-analysis of the deposited data

How the results depend on the processing

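Of 339 alternative values of miR-62 over 29 comparisons, 287 kept their direction and side of the threshold, 10 lost and 24 gained a call, and 18 changed sign; for miR-1020-3p, also with 339 values, 298, 10, 19 and 12 did so. No value of miR-62 or miR-1020-3p that passed changed sign. With 2 libraries a group, leaving one out leaves a lone library that is assumed to vary like the others. The cause of these shifts was not tested.

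The number of member rows past the threshold, over the 5 genotypes against WT in total RNA, was 1 as reported, 3 with DESeq2, 0 with only the compared groups and 0 to 2 without single libraries. In the IP it was 1, and 2 with each of relative log expression (RLE) factors, library totals, no filter and DESeq2, and 1 to 2 without single libraries. For the NDD alleles against the null it was 0 in total RNA, 1 without the filter, 7 with DESeq2, 1 with all precursor rows and 0 to 1 without single libraries; in the IP it was 7, and 1 with only the compared groups. For IP against total it was 2, then 7 with RLE factors, 7 with library totals, 9 with DESeq2, 6 with only the compared groups and 3 to 5 without single libraries. For the interaction it was 0, and 0 to 1 without single libraries.

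Whether equal replicate numbers pair the libraries was not settled. Deviations of same-numbered libraries correlated over 0.1 in 8 of 15 genotype pairs in total RNA (-0.324 to 0.580, median 0.193). They did so in 10 of 15 in the IP (-0.088 to 0.488, median 0.183) and in 1 of 6 between IP and total (median -0.049). With the replicate block the counts of member rows were 1 for the NDD alleles against the null in total RNA (miR-1020-3p in H751L) and 4 for IP against total, and miR-62 in F180del total RNA against WT was -0.10. The block also ended the call of miR-62 in the H751L IP against the null (adjusted p = 0.0659).

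Signs turned for values that did not pass. For miR-62 in F180del total RNA against WT (0.02) they were -0.01 with RLE factors, -0.01 with DESeq2, -0.04 with only the compared groups and -0.97 to 1.14 without single libraries. In V254I total RNA the range without single libraries was -0.68 to 0.18. In the IP, miR-62 in G199S was -0.21 with RLE factors and -0.21 with DESeq2 (-0.47 to 0.61 without single libraries), in H751L -2.19 to 1.06, and miR-1020-3p in V254I -0.06 to 0.22. In H751L total RNA miR-1020-3p ran from -0.57 to 0.00. Its H751L interaction (0.00) was -0.51 with RLE factors, -0.55 with library totals, -0.01 without the filter, -0.51 with DESeq2, -0.39 with only the compared groups and -0.63 to 0.15 without single libraries. For IP against total miR-62 in F180del ran from -1.93 to 0.69, and its interaction from -0.37 to 0.61 in G199S and -2.01 to 1.52 in H751L. In the null IP against WT miR-1018 ran from -7.93 to 0.30, and miR-90-3p from -0.30 to 0.15, with 0.07 for only the compared groups.

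Library totals in place of TMM moved the median change of all miRNAs by 0.51 in F180del total RNA, 0.67 in the F180del IP, 0.17 in null total RNA and -0.28 in the null IP against WT, and by -0.53 in the WT IP against total. Depth limits mir-1019 and miR-1020-5p most, with 79 and 169 reads in all libraries. The counts of member rows above include miR-1020-5p where it was tested. It passed the filter through total RNA of genotypes other than the null.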

Other observations

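The minor arm of mir-90, whose major arm shares the seed of miR-62, was higher in some genotypes than in WT. In the IP miR-90-5p stood at 2.34 and 3.54 RPM in WT, 63.4 and 78.5 in F180del, 39.4 and 41.9 in G199S and 42.9 and 147 in the null. It stood at 0.824 and 2.04 RPM in V254I and 1.08 and 2.73 in H751L, and neither passed (adjusted p = 0.993 and 0.799). It rose by 3.94 ± 0.74 in F180del (log2, edgeR adjusted p = 0.00232), 3.50 ± 0.72 in G199S (adjusted p = 0.00473) and 5.18 ± 0.78 in the null (adjusted p = 0.00117). Of the 269 miRNAs tested in the IP, 64 were called higher in F180del, 55 in G199S and 46 in the null. In F180del 58.4% of them had both IP libraries above both WT IP libraries. The G199S call was lost without WT IP library 2 (adjusted p = 0.0621). In total RNA miR-90-5p also rose in the null (2.08 ± 0.62, edgeR adjusted p = 0.0422), while F180del (1.82 ± 0.62, 0.0543) and G199S (1.60 ± 0.61, 0.0913) did not pass. Of the 303 miRNAs tested there, 23 were called higher in the null. The minor arm of mir-50, miR-50-3p, had IP means of 15.9 RPM in F180del and 12.5 in G199S, with 6 reads in WT, 4 in V254I and 0 in H751L and the null. It passed the filter on low counts through the groups where it was high, so no test is given. In total RNA its means were 9.16 RPM in F180del and 7.30 in G199S, against 4 reads in WT. The minor arm miR-1020-5p had too few IP reads for a test, with 17 in F180del, 3 in G199S, 9 in WT and 0 in the null. Differences between these hairpins and mir-1020 were not tested.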
